A study of Mus musculus with 6 samples.

Results

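The transcription regulators Pax6, Six3, Six4, Eya1, Eya2, Meis1 and Meis2 were followed by array and by probe in the lens ectoderm of mouse embryos whose lens placode had lost type I BMP receptors, the receptors of bone morphogenetic proteins. Members were all probes whose symbol in the platform annotation was one of these 7 genes, which gave 21 of 46632 probes and 7 of 17711 named genes. The KO group held 3 samples with type I BMP receptors deleted in the lens placode, and the WT group held 3 wild-type samples. All 6 came from embryonic day 9.5 and from a mixed C57BL6 and FVB background. The line is titled ALK23. The receptor called ALK2 is encoded by Acvr1, and ALK3 by Bmpr1a. The ectoderm had been cut by laser from frozen sections of 10 microns, and an RNA input of 15 ng per sample gave, after amplification, the cDNA that was hybridised to Illumina bead arrays. RNA was pooled before amplification. The sources used here do not say how many embryos a sample holds, which Cre line was used, which exons were removed or whether WT embryos carried Cre.

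These genes form the core of the preplacodal and eye-field network. Pax6 is a paired-domain and homeodomain factor without which no lens placode forms. Six3 and Six4 belong to the sine oculis homeobox family, whose members bind DNA together with EYA proteins, which are co-activators with phosphatase activity. MEIS proteins are homeodomain factors of the TALE class that work with PBX partners and act upstream of Pax6 in the prospective lens. Several of these genes are active in more than one tissue of the eye rudiment. Pax6 and Six3 are also expressed in the optic vesicle that lies against the ectoderm, and Meis1 and Meis2 are found in ectoderm, vesicle and mesenchyme.

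Since MEIS proteins act on Pax6, the sequences upstream of the members' transcription starts were searched for the MEIS core TGACAG and for GGCGCC, a GC-rich element that BMP-activated SMAD proteins bind. RefSeq promoter windows on build GRCm38.p6 were listed for 5 of the 7 genes, 7 windows in all, and the 250 bases before each start were read on both strands. TGACAG was present in 2 of the 7 windows, against 15.9% of 32851 windows of all genes. These were the Six3 window and 1 of the 2 Pax6 windows, that of the more downstream Pax6 start. The window of the upstream Pax6 start, chr2:105668646-105668895, held no match. Which of these starts the ectoderm uses is not known here. GGCGCC, which reads the same on both strands and does not overlap TGACAG, was in none of the 7, against 9.59% of all windows. The 2 windows that hold the MEIS core are given below 5′ to 3′ on the gene's own strand, the plus strand for both genes, with the match in capitals. In Pax6 the match lies on the opposite strand, so it reads CTGTCA, and its first base is 159 bases before the start. In Six3 its first base is 139 bases before the start. The Six4 windows overlap in part. Sites farther than 250 bases from a start were not searched, so the search cannot speak for distant enhancers. A match describes letters only, and no binding was measured.
Pax6, chr2:105682213-105682462: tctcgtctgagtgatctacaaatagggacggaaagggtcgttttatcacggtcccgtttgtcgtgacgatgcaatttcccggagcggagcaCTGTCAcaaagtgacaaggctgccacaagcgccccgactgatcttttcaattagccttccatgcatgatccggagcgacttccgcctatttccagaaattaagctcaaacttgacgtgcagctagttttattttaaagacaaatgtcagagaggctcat
Six3, chr17:85620584-85620833: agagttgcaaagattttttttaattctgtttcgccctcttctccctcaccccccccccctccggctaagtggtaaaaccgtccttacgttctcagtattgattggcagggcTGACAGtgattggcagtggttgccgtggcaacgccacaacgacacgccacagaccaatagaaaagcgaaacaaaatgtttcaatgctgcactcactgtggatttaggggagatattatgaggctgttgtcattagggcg

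The arrays detected 43% to 45.7% of all probes in KO and 39.6% to 44.7% in WT. The signal of a probe was put on a normalized log2 scale, on which 1 unit is a 2-fold difference, and a probe was tested when its detection p-value was below 0.05 on at least 3 of the 6 arrays. The receptor transcripts do not check the labels, because the position of their probes relative to the deleted exons is not known here. The brightest tested probe gave a log2 fold change, KO minus WT, of -0.74 for Acvr1 (95% interval -2.12 to 0.64) and of 0.12 for Bmpr1a (-0.39 to 0.63). Nothing in the labels says that the samples of a group came from separate animals, so p-values measure only how these samples vary, and part of that may be technical.

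Of the 21 probes, 19 passed the detection filter, 14 of them on all 6 arrays, and 6 of the 7 genes had a tested probe. Of the 19, 9 had a higher mean in KO and 10 a lower one, where 50.9% of all tested probes were higher in KO. None passed an adjusted p of 0.05 in limma, as for the arrays as a whole (0% of 20959 tested probes). None had an unadjusted p below 0.05, a level that 4.49% of all tested probes reached. For none of the 19 did the KO arrays lie wholly above or wholly below the WT arrays, a separation seen for 9.82% of all tested probes. The median log2 fold change of the 19 probes was -0.01, against 0.01 over all tested probes. The 95% interval excluded a 2-fold change both upward and downward for 9 of the 19 (47.4%), against 40.7% of all tested probes. The brightest probes of Pax6, Eya1, Meis1 and Meis2 were among these 9, and those of Six3 and Six4 were not.

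**Figure D1:**
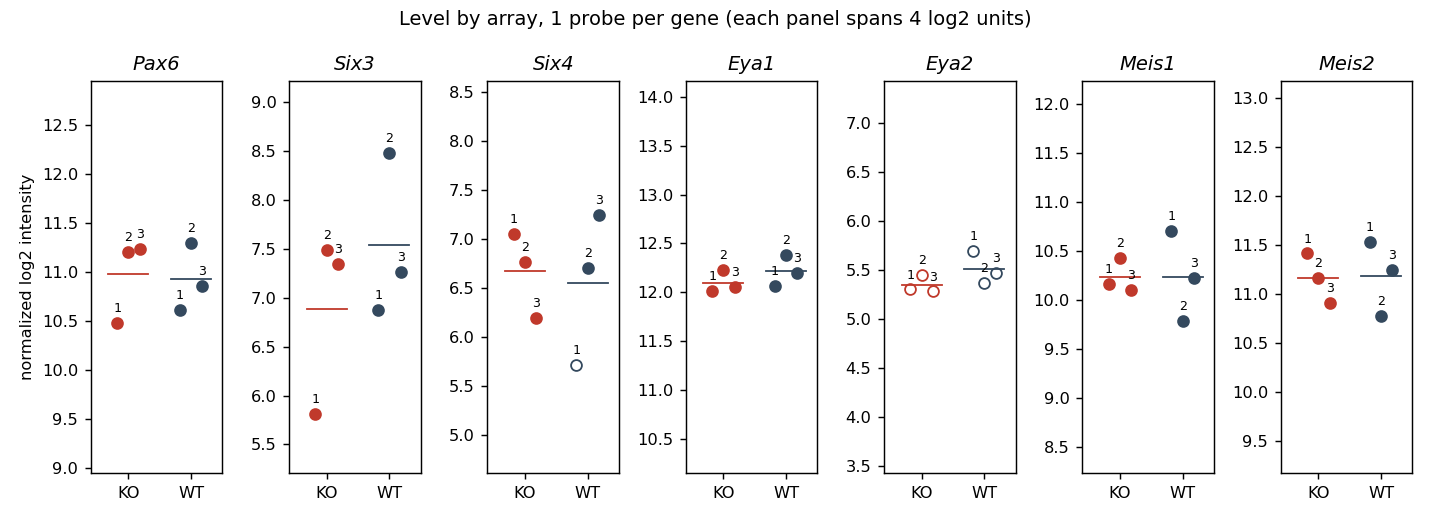
Normalized log2 intensity of each gene on each array, for its brightest tested probe (for Eya2, the brighter of 2 probes that were not tested). Points are arrays numbered as in the labels, KO left of WT, open points were not detected, bars are group means, and each panel spans 4 log2 units. The KO and WT points overlap in all 7 panels, Six3 is spread most widely and Eya1 most narrowly.

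Pax6 was bright on every array and was read by 3 probes that ranked the arrays nearly alike. ILMN_2612187, the brightest, was at 10.48, 11.21 and 11.24 on KO 1 to KO 3, against 10.61, 11.30 and 10.86 on WT 1 to WT 3. KO 1 was the lowest of the 6 arrays and WT 2 the highest, and the other 2 KO arrays lay inside the WT range. Its log2 fold change was 0.05 (95% interval -0.51 to 0.62, limma adjusted p = 0.995), and in linear terms the interval runs from 0.701-fold to 1.53-fold. The second probe, ILMN_2504978, gave -0.03 (interval -0.60 to 0.54). The third, ILMN_2447200, which was drawn on a cDNA or clone entry and not on the RefSeq transcript, gave -0.01 (-0.69 to 0.66). On all 3 probes KO 1 was lowest and WT 2 highest. The KO arrays of the brightest probe spanned 0.75 log2 units and the WT arrays 0.69, far more than the difference between the genotype means.

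Six3, a homeodomain factor of the anterior head that is needed for lens and forebrain development, had the most negative mean differences among the 7 genes. The brighter probe, ILMN_1235642, was at 5.81, 7.49 and 7.35 on KO 1 to KO 3, against 6.88, 8.48 and 7.26 on WT 1 to WT 3. KO 1 was again lowest and WT 2 highest, and KO 2 and KO 3 lay between WT 3 and WT 2. The log2 fold change was -0.66 (interval -2.09 to 0.78, limma adjusted p = 0.989), and with 1 array left out it ran from -0.99 (without WT 1) to -0.12 (without KO 1).

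The second Six3 probe, ILMN_2764616, was detected on 2 of 3 KO arrays and on all 3 WT arrays. It was at 5.38, 5.85 and 6.79 in KO, against 6.86, 8.39 and 6.25 in WT. Its log2 fold change of -1.16 (interval -2.60 to 0.28) had an unadjusted p of 0.1 and a limma adjusted p of 0.989, the lowest unadjusted p of the 19 probes. The difference became -0.55 without WT 2 and -1.62 without WT 3. Both Six3 probes kept a lower mean in KO whichever array was left out.

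Six4, a homeodomain factor of placodes and muscle, was dim. ILMN_1219845 was at 7.06, 6.77 and 6.20 in KO, against 5.72, 6.71 and 7.25 in WT, where WT 1 was not detected. The highest and the lowest array were both WT, and all 3 KO arrays lay between them. Its log2 fold change was 0.11 (interval -1.04 to 1.27), and with 1 array left out it ran from -0.30 (without WT 1) to 0.46 (without WT 3). ILMN_2434136 was steadier, between 6.33 and 6.65 in KO and between 6.55 and 6.75 in WT, and gave -0.17 (interval -0.98 to 0.65). The 2 Six4 probes did not rank the arrays alike, since WT 1 was lowest on the first and highest on the second.

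Eya1, the EYA co-activator of placode development, had the steadiest signal of the set on its main probe. ILMN_2430513 was at 12.01, 12.23 and 12.06 in KO, against 12.07, 12.38 and 12.20 in WT. The arrays differed little, and the groups overlapped. The log2 fold change was -0.12 (interval -0.38 to 0.15, limma adjusted p = 0.989), the narrowest interval of the 19 probes. Its residual SD was 0.14, against a median of 0.43 over all tested probes.

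Eya1 also had the probe with the widest spread. ILMN_2638487 was at 7.40, 9.19 and 8.65 in KO, against 5.79, 9.93 and 8.27 in WT. WT 1 was lowest and WT 2 highest, so the WT arrays spanned 4.14 log2 units while the KO arrays spanned 1.79. Its log2 fold change of 0.42 (interval -1.73 to 2.57) turned to -0.68 without WT 1 and became 1.38 without WT 2. ILMN_2686435, at 0.40 (-0.94 to 1.73), was also lowest on WT 1. The dim ILMN_2444322, detected on 1 KO and 2 WT arrays, gave -0.30 (-0.83 to 0.24). All 4 Eya1 probes were drawn on the RefSeq transcript, and their positions along it are not known here.

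Eya2, a second EYA co-activator, was close to background. ILMN_1253486 was detected on 0 of 6 arrays and ILMN_1254886 on KO 1 only. The second probe was at 5.68, 5.30 and 5.24 in KO, against 5.43, 5.19 and 5.59 in WT. Neither was tested, and no fold is given because both groups were near the detection limit.

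Meis1 had 4 tested probes, all detected on every array. ILMN_1218266, the brightest, was at 10.16, 10.43 and 10.10 in KO, against 10.70, 9.78 and 10.22 in WT. The WT arrays held both the highest and the lowest value, WT 1 and WT 2. The log2 fold change was -0.01 (interval -0.55 to 0.54, limma adjusted p = 0.999).

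The other 3 Meis1 probes, drawn on cDNA or clone entries, all had a higher mean in KO. They gave 0.58 (ILMN_2683739, interval -0.39 to 1.54), 0.42 (ILMN_1218217, -0.58 to 1.42) and 0.26 (ILMN_1248401, -0.67 to 1.20). ILMN_2683739 was at 8.68, 8.93 and 8.48 in KO, against 7.75, 7.56 and 9.04 in WT, so that WT 3 was above every KO array. Without WT 3 it gave 1.04, with an unadjusted p of 0.0178 and a limma adjusted p of 0.683, where 7.09% of all tested probes had an unadjusted p below 0.05. Without WT 2 the probe gave 0.30. With 1 array left out, ILMN_1218217 ran from 0.02 (without WT 2) to 0.78 (without WT 1), and ILMN_1248401 from 0.05 (without WT 3) to 0.65 (without WT 1).

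The brightest Meis2 probe ranked the WT arrays as Meis1 did. ILMN_2774121 was at 11.42, 11.17 and 10.91 in KO, against 11.53, 10.78 and 11.25 in WT. WT 1 was again highest and WT 2 lowest, and the 3 KO arrays lay between them. The log2 fold change was -0.02 (interval -0.50 to 0.46, limma adjusted p = 0.997). ILMN_2759780 gave 0.21 (-0.28 to 0.71), less than 2-fold at either end.

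The largest positive difference of the set belonged to another Meis2 probe, ILMN_1232525, drawn on a cDNA or clone entry. It was at 8.71, 8.55 and 8.37 in KO, against 8.05, 5.28 and 8.67 in WT, and it was not detected on WT 2. The log2 fold change was 1.21 (interval -0.58 to 2.99, limma adjusted p = 0.989) with all arrays, 0.18 without WT 2 and 1.88 without WT 3. The last probe, ILMN_1215821, was dim, was not detected on WT 3 and gave -0.32 (-1.31 to 0.67).

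**Figure D2:**
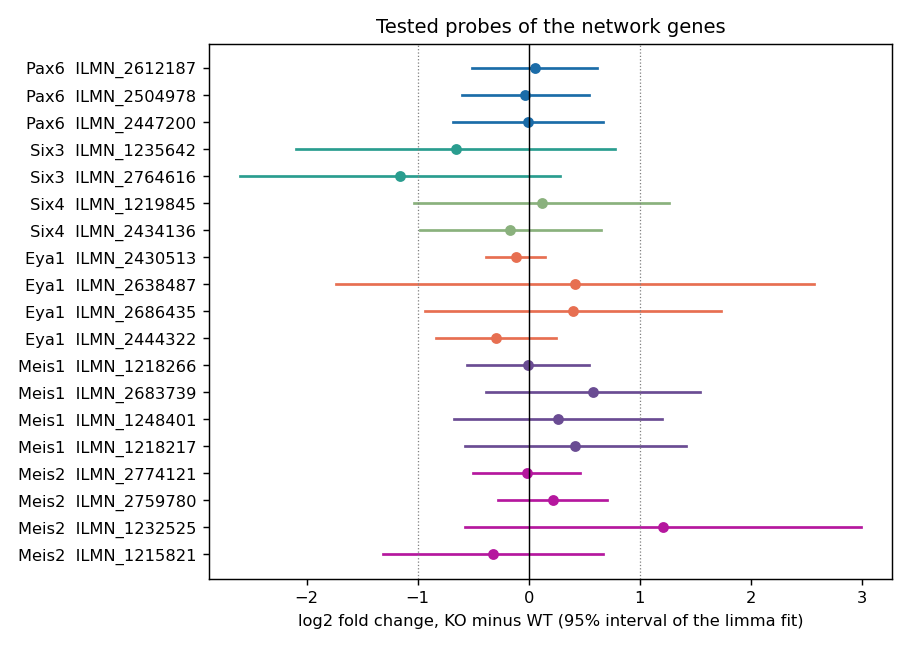
Log2 fold change, KO minus WT, of the 19 tested probes, with points for the estimate and lines for the 95% interval of the limma fit. Dotted lines mark a 2-fold change either way, every interval includes 0, and the intervals run from the narrow one of Eya1 ILMN_2430513 (-0.38 to 0.15) to that of Eya1 ILMN_2638487 (-1.73 to 2.57).

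Each array value is itself a mean over beads, so the error within an array was set beside the spread between arrays. Between 20 and 58 beads stood behind each value of the 19 probes. The standard error of KO minus WT was computed from the deposited bead errors alone and from the spread of quantile-normalized raw log2 values between arrays. The spread between arrays contains the bead error as well as the variation between samples, so it is the larger of both for most probes, here for all 19 and for 99.1% of all tested probes. The ratio had a median of 7.13 over the 19 probes, against 5.52 over all tested probes, and lay between 1.38 (Six4 ILMN_2434136) and 21.3 (Eya1 ILMN_2638487). For the brightest Pax6 probe the bead error of the difference was 0.046 log2 units and the array error 0.309. A test that took beads as replicates would use the smaller of these errors.

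**Figure D3:**
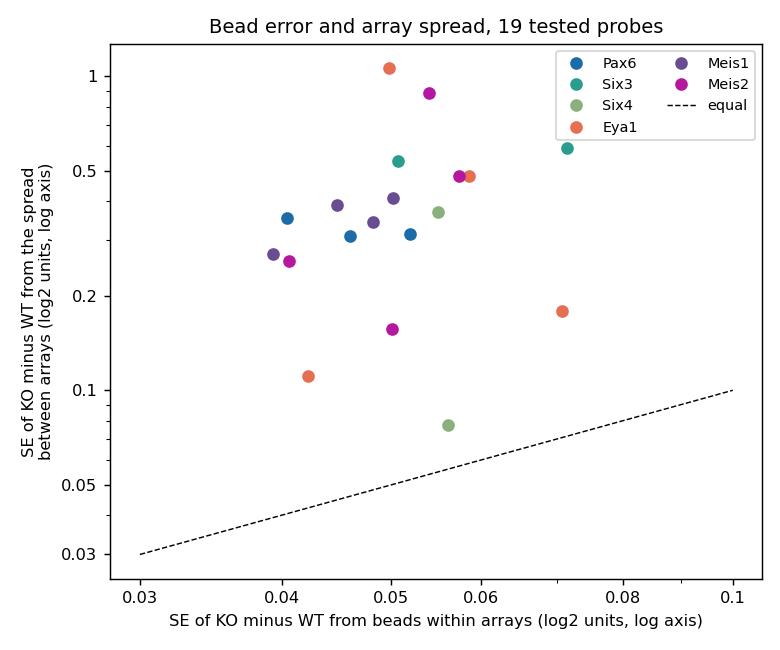
Standard error of the KO minus WT difference from beads within arrays (horizontal, log axis) and from the spread between arrays (vertical, log axis), both in log2 units. Each point is 1 of the 19 tested probes, coloured by gene, and every point lies above the dashed line of equal errors.

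The probes of Pax6 and Six3 shared a ranking of arrays that the genotype does not define. KO 1 was lowest of the KO arrays and WT 2 highest of the WT arrays for all 3 Pax6 probes, from whose values this ranking was picked. Both Six3 probes and 2 of the 4 Eya1 probes had it too. By brightest probe it was shared by Six3 and Eya1 of the 5 other tested genes, while Meis2 had the opposite one, with KO 1 highest in KO and WT 2 lowest in WT. Over all genes at 1 probe each, 11.9% had the first ranking and 17.1% the opposite. WT 2 was the array least like the others: each of them had its lowest correlation with WT 2, between 0.82 and 0.88. It also had the lowest share of detected probes, 39.6%, and the lowest median raw intensity, 74.48. The part of this in the ranking was not tested. Markers of the optic vesicle, retina and pigment epithelium, a tissue that touches the ectoderm, varied widely between arrays. Of 10 markers 8 were measured, 5 lower and 3 higher in KO, with a median log2 fold change of -0.46. Their summed linear intensity was 2233, 1170 and 1962 on KO 1 to KO 3, against 3305, 743 and 3257 on WT 1 to WT 3. The sum was highest on KO 1 within KO and lowest on WT 2 within WT, but the single markers did not all follow it. The opposite ranking was present in 3 of the 8, the pigment genes Dct and Pmel and the eye-field gene Lhx2. Mitf, the pigment cell regulator, was at 8.78, 9.40 and 10.12 in KO, against 8.91, 7.57 and 9.15 in WT, so that KO 1 was its lowest KO array. Six6 was also lowest on KO 1 within KO, and Hmx1 was highest on WT 2 within WT. The part of the vesicle markers in the Pax6 and Six3 values was not tested. The list held Vax2, which was below the detection filter. In dissected tissue, fewer cells of a type and less RNA per cell cannot be told apart.

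The ectoderm label was checked against its own markers. Of 9 surface ectoderm and lens placode markers 7 were measured, and each was detected on all 6 arrays. They were the adhesion genes Cdh1 and Epcam, the keratins Krt5, Krt8 and Krt18, and Tfap2a and Trp63. Tfap2a and Epcam, 2 of the 7, had the Pax6 ranking of arrays, against 11.9% of all genes. Trp63, 1 of the 7, had the opposite one, against 17.1%. Foxe3, a lens placode factor, was detected on at most 2 arrays and not tested. All 7 measured markers had a higher mean in KO, with a median log2 fold change of 0.18, where 49.2% of all genes were higher in KO. None of the 7 passed the test, and their summed intensity was 7089 to 7240 in KO and 5959 to 6650 in WT. Periocular mesenchyme markers, 5 of 8 measured, had a median log2 fold change of -0.69, with 3 lower and 2 higher in KO. They summed to 1914 to 2276 in KO and 1847 to 2218 in WT. Of these, Alx1, Col3a1 and Twist1 were highest on KO 1 within KO and lowest on WT 2 within WT, the opposite of the Pax6 ranking, and Pdgfra had the Pax6 ranking. Blood markers, 5 of 8 measured, had a median of -0.39, with 4 lower and 1 higher in KO. They summed to 5619 to 9800 in KO and 5090 to 11260 in WT. Endothelial markers, 3 of 5 measured, had a median of -0.20 (2 lower, 1 higher) and summed to 349 to 1190 in KO and 451 to 851 in WT. Neuronal markers, 4 of 5 measured, had a median of -0.08 (2 lower, 2 higher) and summed to 454 to 598 in KO and 428 to 694 in WT. The part of these lists in the values of the 7 genes was not tested.

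**Figure D4:**
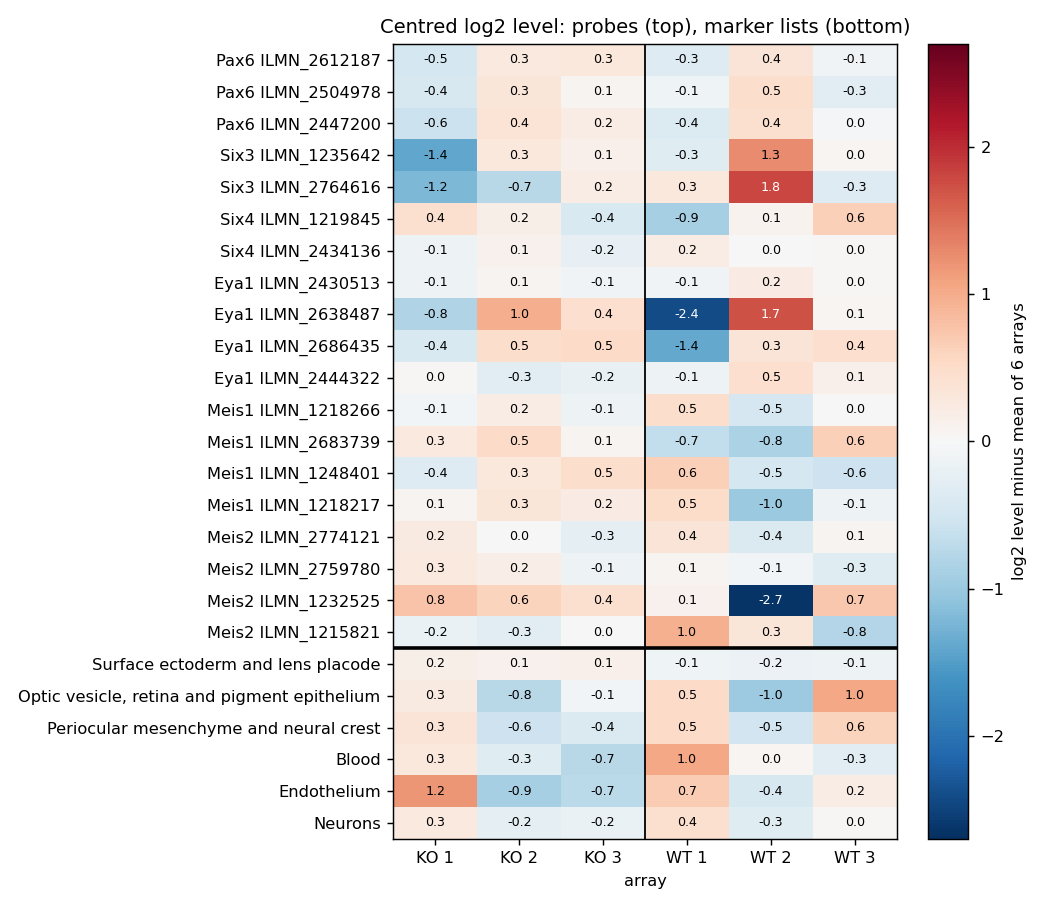
Log2 level on each array minus the mean over the 6 arrays, for the 19 tested probes (top) and for the mean of each marker list (bottom), with KO arrays left of WT arrays. Pax6 and Six3 are lowest on KO 1 and highest on WT 2, while the optic vesicle list is at 0.3 on KO 1 and -1.0 on WT 2. The other lists are also above their mean on KO 1, and all but blood are below it on WT 2. The surface ectoderm list is at 0.2 on KO 1 and -0.2 on WT 2.

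Among the brightest probes, Meis1 and Meis2 had the most alike pattern over the 6 arrays. After each probe was centred on its own mean, their root mean square difference was 0.17 log2 units, the smallest of the 15 pairs of the 6 tested genes. Pax6 and Eya1 followed at 0.25, a value kept low by the small spread of Eya1, and Six3 and Meis2 were farthest apart at 1.01. The distance is not scaled, so it depends on spread as well as on ranking. After centring, the SD was 0.79 for Six3 and 0.26 for Meis2. Compared with about 7282 genes detected on all arrays, the nearest to Pax6 were Fignl1, an ATPase of DNA repair (0.09), the polyadenylation factor gene Fip1l1 (0.11) and Acadl, an acyl-CoA dehydrogenase (0.11), where the median over genes was 0.46. The nearest to Six3 were Cbl, a ubiquitin ligase (0.22), Mpv17l (0.25) and Ccdc186 (0.26), with a median of 0.85. The nearest to Six4 were Bola3, Oxa1l and Rnpep (0.12 to 0.16), and those to Eya1 were the guidance gene Sema3a, Klf6 and Nipsnap3b (0.03 to 0.04). The nearest to Meis1 were Pheta1, Ddx55 and the cell cycle kinase gene Wee1 (all 0.09), and those to Meis2 were Olah, Rasl11b and Arhgap29 (0.06 to 0.07). Medians over genes were 0.61 for Six4, 0.36 for Eya1, 0.43 for Meis1 and 0.41 for Meis2. All these distances describe 6 arrays and carry no test.

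The wider network, in 4 lists of partners, relatives and downstream genes, gave no passing difference either. Of 33 listed genes 22 were measured. The KO mean was the higher of both means for 12 and the lower for 10, and none passed in limma (0% of 10099 genes at 1 probe each). Their median log2 fold change was 0.08, against -0.01 over all genes. The directions are those of the brightest probe of each gene. Other tested probes went the other way for Eya3 (1.22 against -0.20), Otx2 (0.22 against -0.18) and Sox11 (0.05 to 0.15 against -0.20). Those of Pbx2, Pbx3, Pknox2, Tgif1, Sox2 and Mab21l1 kept the direction, and those of Eya4 and Dach1 are given below. Arrays of the 2 genotypes were fully separated for 2 of the 22, Dach2 and Pbx2, where 9.61% of all genes had such a separation. At an unadjusted p below 0.05 there were 2, Eya4 and Dach1, against 4.29% of all genes. That count was 0 without KO 2 or without KO 3, and it ran from 0 to 3 over the settings tried.

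Among relatives of the sine oculis, EYA and DACH proteins 6 of 8 genes were measured. In KO 2 were higher and 4 lower, and the median log2 fold change was -0.25. Dach1, a co-repressor of the same network, was at 8.74, 6.90 and 8.13 in KO, against 8.33, 9.96 and 9.27 in WT. The groups overlapped through KO 1. Its log2 fold change was -1.27 (interval -2.52 to -0.01, limma adjusted p = 0.989), and its other probes gave -0.31 and 0.05. With 1 array left out it ran from -1.70 (without WT 1) to -0.75 (without KO 2), and its unadjusted p of 0.0489 became 0.0638 with the replicate number as a block. Eya4 was at 5.57, 5.83 and 5.55 in KO, where 1 array detected it, against 6.97, 7.94 and 5.80 in WT. It gave -1.26 (interval -2.44 to -0.07, limma adjusted p = 0.989) and 0.07 on its second probe. With 1 array left out the first value ran from -1.81 (without WT 3) to -0.74 (without WT 2). Dach2 stood the other way, at 7.50, 7.57 and 7.56 in KO, against 6.47, 6.21 and 7.03 in WT, and its log2 fold change was 0.97 (interval -0.00 to 1.95, limma adjusted p = 0.989).

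Among TALE cofactors, the PBX, PKNOX and TGIF partners and relatives of MEIS, 5 of 9 were measured. In KO 4 were higher and 1 lower, and the median log2 fold change was 0.13. Pknox2 had 0.95 (interval -0.57 to 2.46), with 0.77 on its second probe. It was 0.28 without WT 1, on which it was not detected, and 1.63 without WT 2. Pbx3 had -0.26 (-1.24 to 0.71), and with 1 array left out it ran from -0.57 (without KO 1) to -0.09 (without KO 2). Pbx2 was bright and steady, at 11.84, 11.89 and 11.91 in KO, against 11.76, 11.77 and 11.84 in WT. Its difference of 0.09 (interval -0.13 to 0.31, limma adjusted p = 0.989) was small although the groups did not overlap, and its second probe gave 0.10.

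Of 8 eye-field factors 6 were measured. In KO 2 were higher and 4 lower, and the median log2 fold change was -0.10. Lhx2, a LIM homeodomain factor of the optic vesicle that is also in the marker list above, had -0.52 (interval -1.54 to 0.50), -0.82 without WT 2 and -0.07 without WT 3. Sox2, a partner of Pax6 on lens enhancers, was at 9.36, 10.72 and 10.77 in KO, against 8.81, 10.58 and 10.15 in WT, a difference of 0.44 (-0.71 to 1.59). Sox2 was the 1 gene of the 6 with the Pax6 ranking, KO 1 lowest in KO and WT 2 highest in WT, while Lhx2 and Otx2 had the opposite one.

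Of 8 genes downstream of Pax6 in lens 5 were measured. In KO 4 were higher and 1 lower, and the median log2 fold change was 0.19. Foxe3, Pitx3 and the crystallin gene Cryaa were below the detection filter. Mab21l1, an eye morphogenesis gene, was at 10.39, 11.72 and 11.78 in KO, against 10.57, 11.64 and 10.70 in WT. Its difference was 0.32 (interval -0.60 to 1.24), and with 1 array left out it ran from 0.08 (without KO 3) to 0.78 (without KO 1). Maf, a regulator of lens fibre genes, had 0.33 (-2.06 to 2.72). Prox1, Maf, Mab21l1 and Sfrp2 shared the Pax6 ranking, with KO 1 lowest in KO and WT 2 highest in WT, which made 4 of the 5 measured genes, against 11.9% of all genes. Sox11, the other measured gene, had the opposite ranking.

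**Figure D5:**
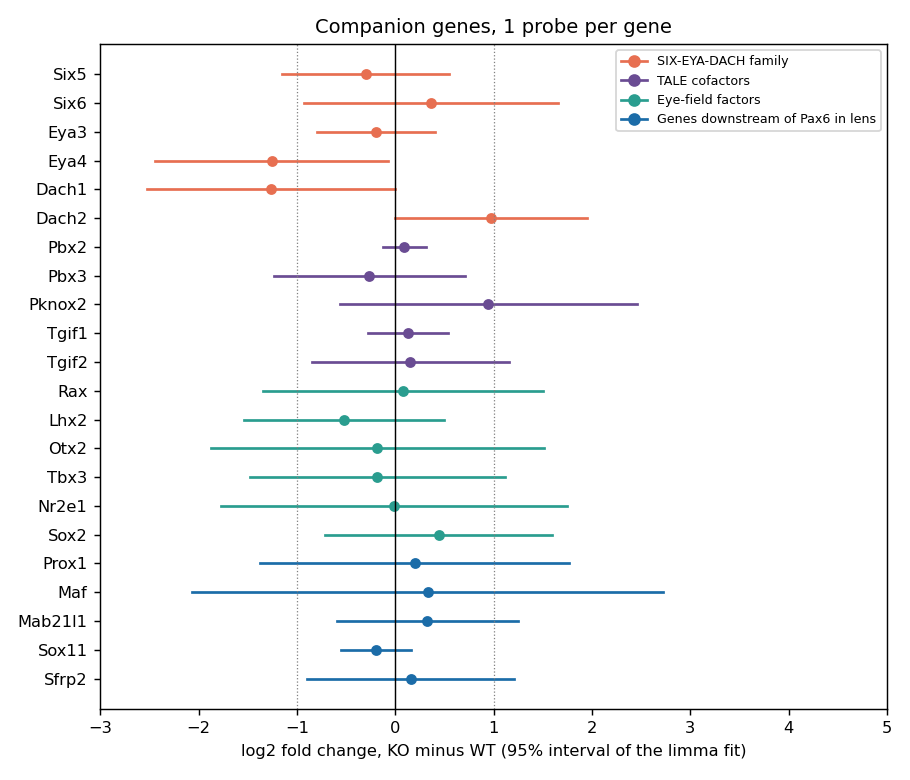
Log2 fold change, KO minus WT, of the 22 measured partners, relatives and downstream genes, 1 probe per gene, with the 95% interval of the limma fit and a colour for each list. Dotted lines mark a 2-fold change either way, and the unadjusted intervals of Eya4 and Dach1 lie below 0, with upper ends of -0.07 and -0.01, while neither passed the adjusted test.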

How the data were processed

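The deposited non-normalized table gave for each probe and array, per the file headers, the mean intensity of its beads, their number, their standard error and a detection p-value. The authors' intensity values were linear, and the submitters' processing notes name GenomeStudio. A second deposited table held processed intensity values, made by a method that no header or label records. It served as an alternative. Intensities went through neqc (limma 3.58.1, R 4.3.3), which applies normexp with control levels derived from detection p-values, adds an offset (16 here), quantile normalizes and takes log2. The offset compresses differences of dim probes. Probes detected at p below 0.05 on at least 3 of 6 arrays were fitted as KO minus WT by lmFit and eBayes with a variance trend, with two-sided p-values and Benjamini-Hochberg adjustment over all 20959 tested probes. A gene was represented by its brightest tested probe. All 6 arrays sat on 1 slide, so slide was no batch. Symbols came from the platform annotation, and 0 needed an update. The fit was tested on simulated data. The number of arrays limits the precision.

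Named genes were the 7 members and the 2 genes of each partner list farthest from a log2 fold change of 0. The 3 genes nearest in pattern to each member were named too, without predicted or clone names. Other genes were named beside a small count, or for their other probes, after their values were seen. Members and lists were chosen with earlier results of these data known. Bead errors were put on the log2 scale as the standard error over the mean intensity and the natural log of 2. No chromosome position of a probe was used.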

Additional observations from a re-analysis of the deposited data

How the results depend on the processing

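In no setting did a probe pass an adjusted p of 0.05. This covers the 19 tested probes of the 7 genes, the 22 partner and downstream genes and all tested probes. Over all tested probes the lowest limma adjusted p was 0.258, without WT 2, against 0.989 with all arrays. Without WT 2, 1391 of 20959 probes had an unadjusted p below 0.05, against 941 with all arrays. The settings were no background correction, the authors' processed values, an offset of 50, no detection filter, detection on all 6 arrays, array weights, eBayes without a trend, the replicate number as a block, and each array left out in turn. The lowest adjusted p of a member probe was 0.683, without WT 3, where 3 member probes had an unadjusted p below 0.05 (Six3 ILMN_2764616, Meis1 ILMN_2683739 and Meis2 ILMN_1232525). Under that setting 7.09% of all tested probes were below 0.05, against 4.49% with all arrays. The replicate block left the count at 0, with a lowest adjusted p of 0.987. The labels do not say that same-numbered samples are paired, so the numbers were not taken to pair them. The correlation of same-numbered KO and WT arrays in their deviations from the group means was 0.106, 0.136 and -0.008. Unlike-numbered arrays ran from -0.194 (KO 1 with WT 2) to 0.125 (KO 1 with WT 3), so these values do not settle a pairing.

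Some values changed sign, and the cause was not tested. With array weights Pax6 ILMN_2504978 gave 0.15, Pax6 ILMN_2447200 gave 0.11, Six4 ILMN_1219845 gave -0.21 and Meis2 ILMN_1215821 gave 0.018. With the authors' processed values Meis1 ILMN_1218266 gave 0.0072. With 1 array left out, Pax6 ran from -0.10 to 0.30 (ILMN_2612187), from -0.20 to 0.20 (ILMN_2504978) and from -0.20 to 0.28 (ILMN_2447200). Six4 ILMN_1219845 ran from -0.30 to 0.46. Eya1 ran from -0.68 to 1.38 (ILMN_2638487) and from -0.19 to 0.72 (ILMN_2686435). Meis1 ILMN_1218266 ran from -0.23 to 0.23, Meis2 ILMN_2774121 from -0.23 to 0.15 and Meis2 ILMN_1215821 from -0.80 to 0.078. Sox2 ran from -0.078 to 0.90 and Maf from -0.49 to 1.39. The other member probes kept their sign, as did Lhx2, Mab21l1, Dach1, Dach2, Eya4, Pknox2, Pbx2 and Pbx3. Dim probes have values near the floor, where a larger difference of the transcript could go unseen.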
